A study of Homo sapiens with 12 samples.

Results

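The response of OCI-LY3 cells to selinexor was taken from the 6 of the 12 libraries of the series that come from this line, 3 of untreated and 3 of selinexor-treated cells, and all genes in the deposited table were considered. OCI-LY3 cells are an established diffuse large B-cell lymphoma line, given by the labels as of the activated B-cell type and of WT genotype. Selinexor is a small molecule that blocks the nuclear export receptor XPO1. The other 6 libraries are of the line SU-DHL6, with and without the drug, and they enter here through the shared estimate of the spread and a few comparisons between lines. The protocols name doses of 300 and 100 nM and times of 24 and 48 h, without saying which libraries or which line received which. The controls were grown without drug for the same times, in medium with 10 or 20% serum.

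XPO1 carries proteins with a leucine-rich export signal, and some RNAs, out of the nucleus, and selinexor occupies the pocket that binds this signal. Lymphomas of the activated B-cell type depend on signals from the B-cell receptor, Toll-like receptor adaptors and NF-kB, and they express IRF4, a factor that B cells use on the way to plasma cells. OCI-LY3 is known for its constant NF-kB activity and for the cytokines that it makes.

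Of 16474 genes tested, 3664 were called higher and 3657 lower in treated cells at an adjusted p under 0.05, which is 22.2% in each direction. A change of at least 2-fold was called for 1417 genes in the higher direction (8.60%) and 1541 in the lower (9.35%), and the quartiles over all genes were log2 fold changes of -0.48 and 0.50 (median 0.00). Rose and fell are used below only of called genes, CPM is the read count relative to the library total scaled by TMM factors, and the error of a log2 fold change is its SE. Wherever called members of a gene list are counted below, the share over all genes tested is this 22.2% in each direction. Library totals were 14389674 to 15098847 counts, and libraries of the same group correlated at 0.986 to 0.989 over genes. On the first principal component of the 6 libraries (67.2% of the variance) treated and untreated libraries separated, and on the second (9.29%) the third treated library had a score of -42.2, against 23.6 and 18.4 for the other treated libraries. XPO1 itself was at 180, 186 and 171 CPM in untreated cells and at 358, 329 and 377 CPM in treated cells (log2 fold change 0.99 ± 0.13, adjusted p = 2.41e-05). Exons of 8186 tested genes overlap those of another gene, and for these the reads of the partners cannot be told apart, since the counting is not described. No source says how the cultures were set up, so the p-values measure the spread between these libraries.

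**Figure D1:**
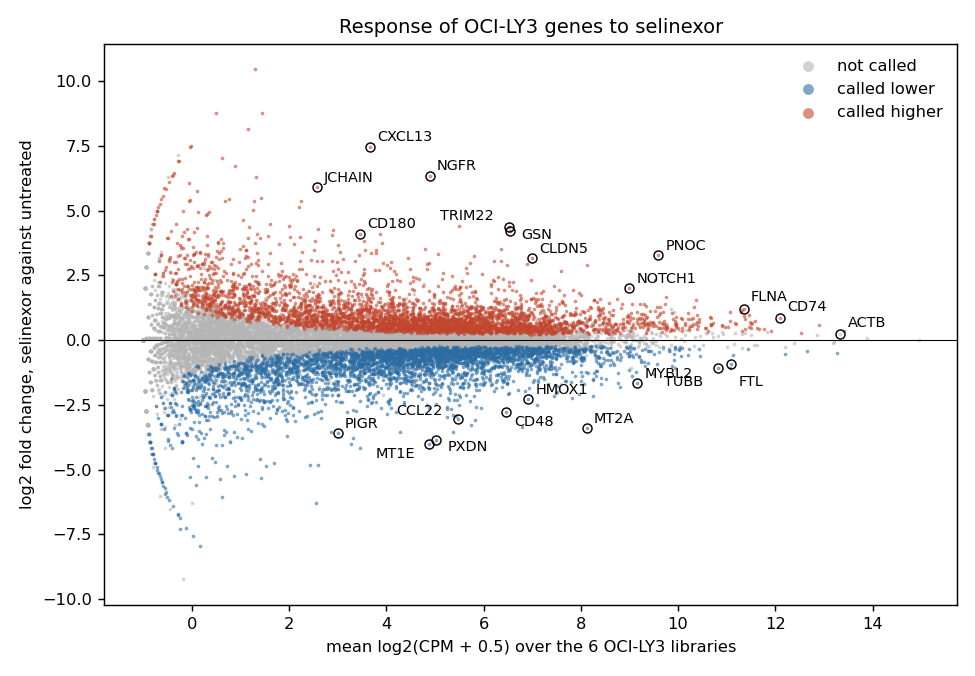
Each point is a gene, placed by its mean level over the 6 OCI-LY3 libraries (horizontal, log2 of CPM plus 0.5) and its log2 fold change under selinexor (vertical), coloured by call. Some of the genes named in the text are circled: CXCL13 stands highest of those circled at 7.47, MT1E lowest at -4.0, and ACTB, at 0.23, was not called.

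The libraries carried the transcripts of a B-cell line. Summed over 11 B-cell identity markers, untreated libraries held 6903 to 7318 CPM and treated libraries 11388 to 12231 CPM. Of the 11 identity markers, 7 rose and 0 fell, with a median log2 fold change of 0.51 (0.00 over all genes tested). CD79B, a signalling chain of the B-cell receptor, was at 146, 139 and 138 CPM in untreated and at 475, 450 and 487 CPM in treated cells. Its partner CD79A was at 509, 565 and 563 CPM against 586, 563 and 507 CPM, so that the groups overlapped (log2 fold change 0.02 ± 0.12, adjusted p = 0.943). MS4A1, which encodes CD20, rose by 1.16 ± 0.12, CD74, the invariant chain of MHC class II, by 0.84 ± 0.16, and the tetraspanin CD37 by 0.57 ± 0.10. FCRLA, a B-cell Fc receptor relative, rose by 1.93 ± 0.14.

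Markers of other blood and tissue cells were summed in the same way. NK and cytotoxic markers summed to 0.211 to 0.882 CPM in untreated and 1.16 to 1.43 CPM in treated libraries, erythroid and megakaryocyte markers to at most 1.51 CPM, and myeloid markers to 26.2 to 35.4 CPM. Among the myeloid markers CSF1R rose, from 1.18, 0.421 and 1.18 CPM to 3.96, 4.51 and 4.6 CPM, and so did CD68, by 1.39 ± 0.22. T-cell markers summed to 29.9 to 37.5 CPM and 21.5 to 26.2 CPM, and most of this was CD5, which some B-cell lymphomas carry, at 26.5 to 33.2 CPM in untreated cells. At far lower levels CD3E (0.209, 0 and 0.367 against 2.17, 1.80 and 1.59 CPM) and CD8A (0.418, 0.0702 and 0.220 against 2.72, 1.35 and 1.81 CPM) rose. The part of these other-cell markers in the results was not tested. Stromal, endothelial and epithelial markers went from 28.4 to 30.3 CPM to 56.5 to 68.6 CPM, with PECAM1, a surface protein of endothelium and of some leukocytes, at 5.15, 3.23 and 4.41 CPM in untreated and 28.0, 29.3 and 27.9 CPM in treated cells. CD14, LYZ, CD3D, CD3G, EPCAM and VWF had no count in any of the 6 libraries.

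Genes that distinguish lymphoma types moved in both directions. Among 18 markers of the activated B-cell type, 5 rose and 6 fell (median log2 fold change -0.01). These are 27.8% and 33.3%, against 22.2% in each direction over all genes. IRF4 was at 913, 885 and 889 CPM in untreated and 462, 432 and 462 CPM in treated cells, a fall of the same size in each treated library (-0.99 ± 0.08, adjusted p = 2.86e-07). CCND2, a G1 cyclin, fell by 0.52 ± 0.09 on the log2 scale and BATF, an AP-1 family factor, by 0.33 ± 0.10, whereas the phosphatase gene PTPN1 (0.79 ± 0.08), the small GTPase gene RAB29 (1.10 ± 0.09) and the kinase gene PIM2 (0.61 ± 0.11) rose. BATF was not called when untreated replicate 2 or selinexor replicate 2 was left out (adjusted p = 0.0548 and 0.0576). Among 21 markers of the germinal centre type, 10 rose and 4 fell (median 0.33). LRMP was at 35.9, 32.7 and 31.7 CPM in untreated and 85.6, 90.0 and 105 CPM in treated cells. ITPKB, an inositol trisphosphate kinase of B cells, rose by 1.25 ± 0.12 and RGS13, a brake on chemokine receptor signalling, by 0.50 ± 0.10. NEK6 fell by 0.58 ± 0.08 on the log2 scale, and BCL6, the germinal centre repressor, was not called (-0.16 ± 0.08, adjusted p = 0.137). Levels of these genes in bulk RNA cannot separate a change in the share of cells from a change per cell.

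Plasma cell genes split. JCHAIN, which joins secreted IgM and IgA, was at 0.697, 0.421 and 0.514 CPM in untreated and 32.6, 33.0 and 34.1 CPM in treated cells (5.91 ± 0.20, adjusted p = 1.05e-10), and TNFRSF17, the plasma cell receptor BCMA, at 8.22, 4.07 and 8.52 against 41.0, 43.6 and 48.5 CPM. The treated libraries lay far above the untreated ones for both genes. XBP1, the factor of the secretory programme, moved the other way, from 216, 210 and 220 CPM to 110, 106 and 117 CPM, and FKBP11, a folding enzyme of the same programme, fell by 0.89 ± 0.15 on the log2 scale. Of 15 plasma cell genes, 3 rose and 5 fell (20% and 33.3%, against 22.2% in each direction over all genes). Beside JCHAIN and TNFRSF17, the gene of this list that rose was DERL3, of the endoplasmic reticulum (log2 fold change 1.24). Genes of the secretory pathway thus went in both directions. Constant-region genes of immunoglobulins took 0.297 to 0.318% of counts in untreated and 0.510 to 0.539% in treated libraries.

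Of 41 tested chemokine and cytokine genes, 11 rose and 11 fell (26.8% in each direction, near the 22.2% of all genes), with a median log2 fold change of 0.02. The rises began with CXCL13 (ENSG00000156234, chromosome 4, 77511753 to 77611834 on GRCh38), the chemokine that draws CXCR5-bearing cells into follicles. It was at 0.975, 0.421 and 0.808 CPM in untreated and at 121, 126 and 149 CPM in treated cells (7.47 ± 0.23, adjusted p = 6.08e-09). PNOC (ENSG00000168081, chromosome 8, 28316986 to 28343355), the precursor of the opioid-like peptide nociceptin, held 250, 250 and 239 CPM in untreated and 2402, 2301 and 2472 CPM in treated cells (3.28 ± 0.11, adjusted p = 1.01e-10). It was also among the 12 largest rises in mean CPM, and its exons overlap those of a clone-named gene. MDK, a heparin-binding growth factor, rose from 18.5, 17.6 and 17.4 CPM to 194, 142 and 170 CPM. PNOC and MDK are not among the 41 genes counted above. LTB, the membrane-bound lymphotoxin, was at 110, 126 and 120 CPM in untreated and at 477, 480 and 387 CPM in treated cells, and IL16 rose by 0.84 ± 0.09.

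Several other genes of secreted signals fell. CCL22, which attracts CCR4-bearing T cells, was at 122, 121 and 133 CPM in untreated and at 17.3, 14.8 and 13.6 CPM in treated cells (-3.04 ± 0.25, adjusted p = 7.89e-07). LTA, the soluble lymphotoxin and neighbour of LTB and TNF on chromosome 6, went from 335, 345 and 336 CPM to 102, 98.7 and 95 CPM, and TNF from 245, 244 and 250 CPM to 92.0, 88.7 and 91.5 CPM. In this cluster of 3 genes, LTB rose while LTA and TNF fell. EBI3, a subunit shared by interleukin 27 and interleukin 35, fell by 1.63 ± 0.17 on the log2 scale, and so did the genes of its partner chains, IL12A (-2.21 ± 0.33) and IL27 from 4.81, 4.14 and 2.72 CPM to at most 0.0776 CPM. IL12B, a further subunit of this family, was at 61.1, 57.6 and 59.8 CPM in untreated and 52.7, 52.6 and 67.1 CPM in treated cells and was not called, and neither was MIF (-0.26 ± 0.13, adjusted p = 0.104).

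**Figure D2:**
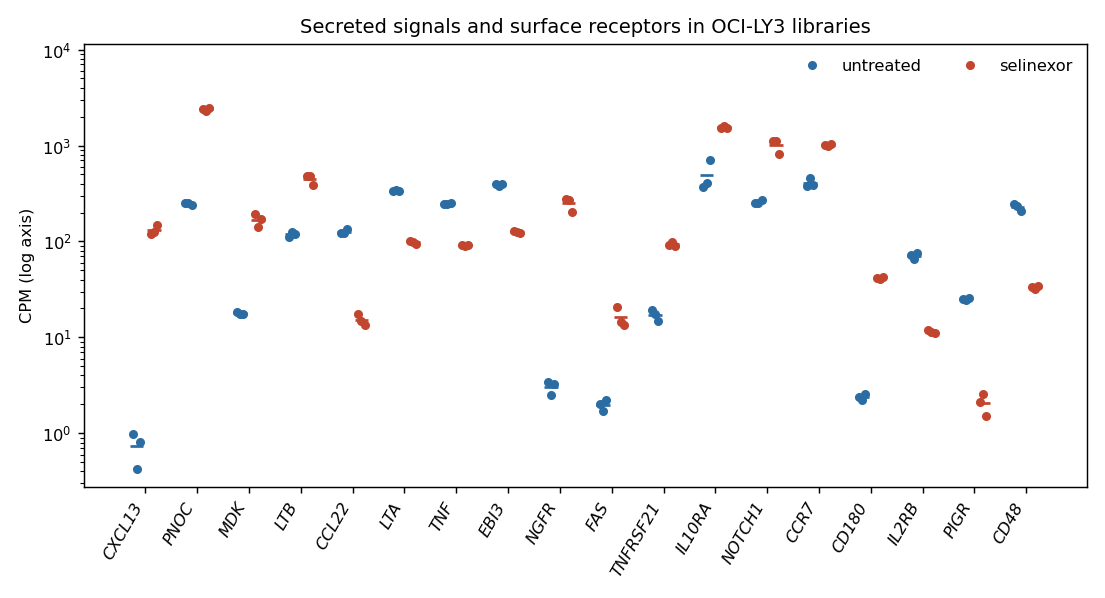
CPM (vertical, log axis) of 18 genes of secreted signals and receptors in each of the 3 untreated (blue) and 3 treated (red) OCI-LY3 libraries, with horizontal lines at the group means. The groups do not overlap for any of these genes, as for 57.5% of all genes tested. CXCL13 lies below 1 CPM in untreated cells and at 121 CPM or more in treated cells, and CD48, LTA and TNF lie lower in treated cells.

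Lists of cytokine, growth factor and TNF receptors held more genes called higher than the 22.2% of all genes tested. Of 41 tested cytokine and growth factor receptor genes, 18 rose and 9 fell (43.9% and 22.0%, median log2 fold change 0.47). The share that fell was near the 22.2% of all genes. Of 20 members of the TNF receptor superfamily, 9 rose and 1 fell (45% and 5%, median 0.40). NGFR, the low-affinity neurotrophin receptor, was at 3.41, 2.53 and 3.23 CPM in untreated and at 277, 268 and 205 CPM in treated cells (6.35 ± 0.22, adjusted p = 1.54e-10). FAS, the death receptor, went from 2.02, 1.68 and 2.20 CPM to 20.9, 14.4 and 13.4 CPM, and TNFRSF21, known as death receptor 6, from 19.1, 17.5 and 14.8 CPM to 92.3, 99.0 and 89.9 CPM. CD40, the receptor for T-cell help, overlapped between the groups (336, 426 and 347 against 306, 374 and 477 CPM, adjusted p = 0.774). TNFSF8, the CD30 ligand and the partner of another member of the superfamily, had 3, 2 and 0 counts in untreated libraries and 123, 112 and 152 counts in treated ones.

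IL10RA, the ligand-binding chain of the interleukin 10 receptor, was at 367, 410 and 704 CPM in untreated and at 1531, 1587 and 1525 CPM in treated cells (1.65 ± 0.21, adjusted p = 5e-05). The third untreated library stood above the other untreated ones, and still at less than the lowest treated one. IL4R went from 6.83, 8.07 and 9.11 CPM to 41.8, 45.8 and 14.9 CPM, with the third treated library well below its replicates (2.09 ± 0.46, adjusted p = 0.00477). IL2RB, the chain shared by the receptors for interleukin 2 and 15, fell from 72.3, 65.8 and 74.9 CPM to 12, 11.4 and 11 CPM, and CSF2RB, the common chain of interleukin 3 and 5 receptors, was not called (-0.16 ± 0.15, adjusted p = 0.412). NOTCH1 rose from 251, 251 and 268 CPM to 1126, 1114 and 821 CPM, while among 73 tested genes of the Notch, Wnt, Hedgehog and BMP pathways 7 rose and 21 fell. These are 9.59% and 28.8%, against 22.2% in each direction over all genes. PIGR, which carries polymeric antibody across epithelia, fell from 24.8, 24.4 and 26.0 CPM to 2.10, 2.56 and 1.51 CPM.

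Receptors for position in lymphoid tissue did not move as a group (30 tested, 8 higher and 10 lower, median -0.17). These are 26.7% and 33.3%, against 22.2% in each direction over all genes. CCR7, which guides cells to T-cell zones, was at 378, 462 and 390 CPM in untreated and at 1021, 998 and 1042 CPM in treated cells (1.32 ± 0.10, adjusted p = 1.79e-07). S1PR1, the exit receptor, was seen at 0, 2 and 0 counts in untreated and 21, 21 and 26 counts in treated libraries. P2RY14, a receptor for UDP-sugars that is outside this list, rose from 2.93, 2.11 and 1.84 CPM to 23.6, 23.1 and 25.5 CPM. The integrin chains ITGB2 (-0.87 ± 0.12) and ITGAL (-1.02 ± 0.11), which together form LFA-1, both fell.

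B-cell surface proteins included some of the largest changes. CD180 (ENSG00000134061, chromosome 5, 67179613 to 67196799), a Toll-like receptor relative that B cells use to sense lipopolysaccharide, was at 2.37, 2.25 and 2.57 CPM in untreated and at 41.2, 40.5 and 42.3 CPM in treated cells (4.10 ± 0.13, adjusted p = 1.01e-10), and LY96, the co-receptor of TLR4, rose by 1.84 ± 0.19. CD48, a ligand of the SLAM family, fell from 243, 232 and 205 CPM to 33.8, 32.2 and 34.3 CPM (-2.76 ± 0.12, adjusted p = 1.05e-09). The tetraspanin CD53 rose by 1.51 ± 0.11 and the tetraspanin TSPAN33, a marker of activated B cells, fell by 1.38 ± 0.11 on the log2 scale. FCRL5 rose by 3.12 ± 0.25. CLDN5 (ENSG00000184113, chromosome 22, 19523024 to 19527545), a tight-junction protein best known in endothelium, was at 40.5, 44.4 and 43.3 CPM in untreated and at 430, 405 and 318 CPM in treated cells (3.17 ± 0.18, adjusted p = 1.28e-08). Over 56 integrin and adhesion genes, 16 rose and 16 fell (28.6% in each direction, against 22.2% over all genes).

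Signalling genes downstream of these receptors gave mixed lists, to be read against the 22.2% called in each direction over all genes. Of 56 B-cell receptor signalling genes, 20 rose and 11 fell (median 0.14), among them SYK, the kinase next to the receptor (1058, 1031 and 1082 against 1737, 1703 and 1716 CPM, 0.70 ± 0.08), and NFATC2, a calcium-dependent factor, which fell by 1.21 ± 0.11 on the log2 scale. Of 31 Toll-like receptor and MYD88 pathway genes, 11 rose and 5 fell (median 0.32). The kinase IRAK1 (-0.86 ± 0.19) and the adaptor TRAF3 (-1.01 ± 0.17) were among the falls. Of 47 NF-kB subunits, inhibitors and targets, 16 rose and 15 fell (median 0.01). NFKB1, the p105 subunit, went from 221, 237 and 240 CPM to 118, 106 and 102 CPM, and the nuclear IkB protein gene NFKBIZ fell by 1.61 ± 0.15 on the log2 scale. The caspase 8 inhibitor gene CFLAR rose from 173, 171 and 211 CPM to 353, 643 and 610 CPM, and BCL2L1, which encodes BCL-xL, rose by 1.24 ± 0.11. Of 21 protein tyrosine phosphatase genes 10 rose and 1 fell (median 0.33), with PTPRE at 1.30 ± 0.12 and PTPRCAP, a partner of CD45, at 0.97 ± 0.14.

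**Figure D3:**
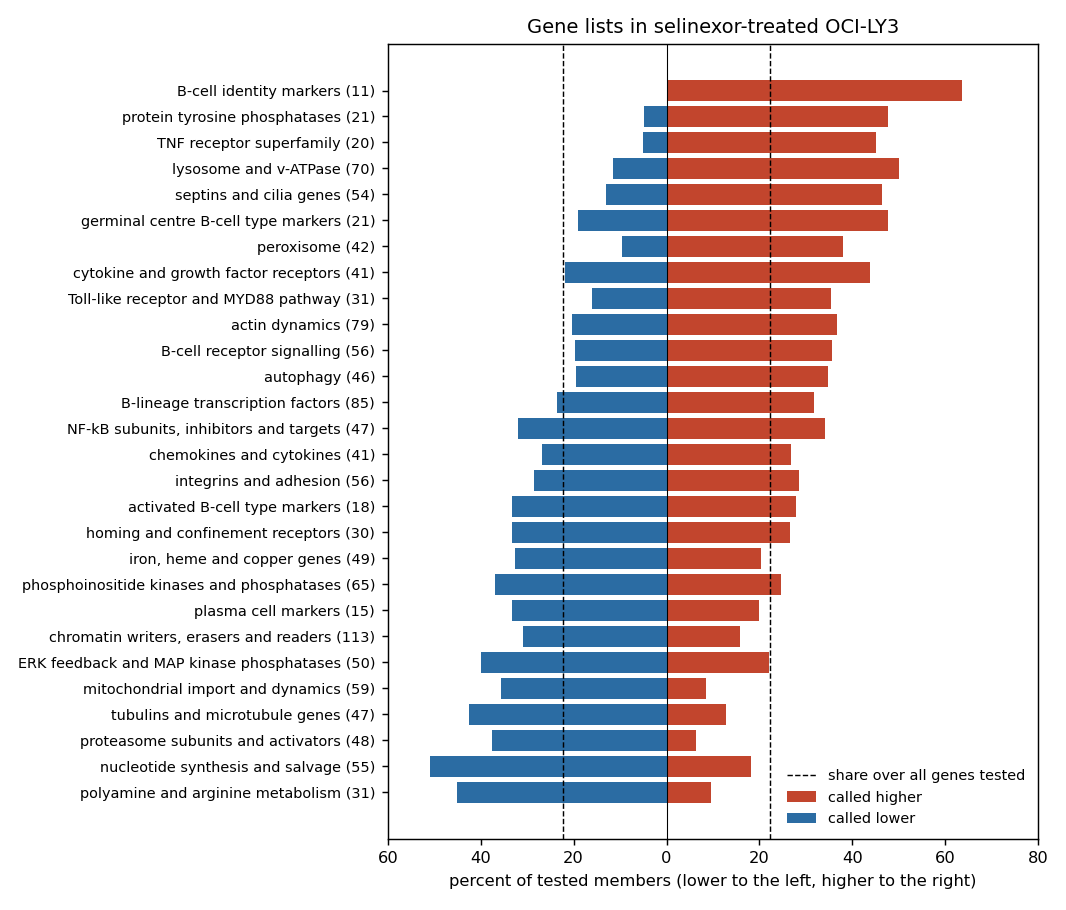
Percent of tested members (numbers of tested members in parentheses) called higher (red, to the right) and lower (blue, to the left) for 28 gene lists, with dashed lines at the 22.2% called in each direction over all genes tested. B-cell identity markers, with 7 of 11 higher, stand at the top, and polyamine genes, with 14 of 31 lower, at the bottom.

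ERK feedback genes fell more often than they rose (20 against 11 of 50, median -0.49). These are 40% and 22%, against 22.2% in each direction over all genes. ETV4, a factor made when ERK is active, was at 34.1, 34.5 and 37.6 CPM in untreated and at 2.48, 2.33 and 1.66 CPM in treated cells (-4.03 ± 0.24, adjusted p = 2.09e-08), and ETV5 (-1.34 ± 0.12) and the ERK phosphatase gene DUSP7 (-1.26 ± 0.16) also fell. Other members of the same list rose: PHLDA1 went from 2.44, 3.23 and 2.94 CPM to 42.9, 40.7 and 37.0 CPM, and DUSP1, a MAP kinase phosphatase, rose by 1.83 ± 0.13. AP-1 subunits differed: JUN rose from 38.2, 36.1 and 38.3 CPM to 80.4, 91.7 and 89.6 CPM, JUND rose by 1.02 ± 0.11 and FOSB by 2.64 ± 0.29, while JUNB was not called (-0.21 ± 0.12, adjusted p = 0.18). ARRDC3, an alpha-arrestin that takes receptors and nutrient carriers off the cell surface, rose from 29.1, 29.2 and 26.3 CPM to 219, 235 and 253 CPM. DDIT4, an inhibitor of mTORC1, fell from 149, 158 and 154 CPM to 25.5, 23.8 and 24.5 CPM, and GADD45B from 99.0, 107 and 95.4 CPM to 14.8, 15.2 and 16.9 CPM.

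Promoters were searched for the AP-1 element TGANTCA, since subunits of AP-1 rose. The 300-base windows of RefSeq (GRCh38.p14, 250 bases before and 50 bases after a start site) matched 9986 tested protein-coding genes by symbol. The element, read on both strands, was found in 4.43% of all these windows, in 6.97% of the 746 windows of genes called at least 2-fold higher (52 of them) and in 5.06% of the 948 of genes at least 2-fold lower (48). The windows of 3 genes that rose are shown because each holds the element: CD180 and IL10RA, given above, and LPXN, which encodes the focal adhesion protein leupaxin of B cells and was at 75.1, 79.1 and 78.4 CPM in untreated and at 530, 332 and 614 CPM in treated cells. Capitals mark the element, which is a match of letters and not a measured site. The 3 genes were chosen after their values and windows were seen.
CD180 (chr5:67196750-67197049, minus strand): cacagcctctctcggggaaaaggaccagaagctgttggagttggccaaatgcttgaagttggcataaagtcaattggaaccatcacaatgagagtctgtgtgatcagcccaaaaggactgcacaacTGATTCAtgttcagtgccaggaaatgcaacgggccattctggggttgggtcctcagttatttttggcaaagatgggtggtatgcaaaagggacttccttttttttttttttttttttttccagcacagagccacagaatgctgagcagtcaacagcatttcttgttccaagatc
IL10RA (chr11:117989695-117989994, plus strand): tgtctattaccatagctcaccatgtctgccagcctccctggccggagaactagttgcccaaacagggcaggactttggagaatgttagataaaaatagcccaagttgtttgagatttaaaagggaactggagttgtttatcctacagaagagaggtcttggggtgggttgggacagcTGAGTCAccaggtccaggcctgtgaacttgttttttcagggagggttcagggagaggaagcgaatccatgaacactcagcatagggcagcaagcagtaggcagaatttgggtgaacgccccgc
LPXN (chr11:58578084-58578383, minus strand): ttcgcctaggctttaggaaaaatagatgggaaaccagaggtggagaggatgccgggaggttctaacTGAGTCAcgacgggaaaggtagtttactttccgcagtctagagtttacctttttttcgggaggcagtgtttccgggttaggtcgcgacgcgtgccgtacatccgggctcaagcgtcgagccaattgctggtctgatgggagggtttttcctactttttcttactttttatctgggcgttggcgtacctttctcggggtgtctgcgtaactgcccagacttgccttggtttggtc
In the same windows the octamer ATTTGCAT of B-cell promoters was in 2.41% of the genes at least 2-fold higher, 0.633% of those at least 2-fold lower and 1.30% of all. The cell cycle homology region TTTGAA was in 15.8% of the windows of genes at least 2-fold lower, 11% of those at least 2-fold higher and 9.79% of all, and the ETS element CCGGAAGT in 4.32%, 6.57% and 9.07%. The TATA letters TATAAA were in 8.58% of the genes at least 2-fold higher, 6.43% of those at least 2-fold lower and 5.48% of all. In all, 12 motifs were counted, no test was made, and the counts do not correct for base composition.

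Transcription factors of the B lineage moved both ways (85 tested, 27 higher, 20 lower, median 0.04). These are 31.8% and 23.5%, against 22.2% in each direction over all genes. ID3, an inhibitor of E proteins, was at 18.2, 20.4 and 17.6 CPM in untreated and at 147, 154 and 138 CPM in treated cells (2.96 ± 0.13, adjusted p = 1.56e-09). TCF3, which encodes the E proteins that ID3 binds, fell from 416, 426 and 426 CPM to 187, 159 and 140 CPM. MYCL, a relative of MYC, rose by 2.93 ± 0.20 and NPAS1, a factor of neurons, by 2.69 ± 0.20, both outside the counted list. At higher levels ETS1 rose by 1.19 ± 0.11 and STAT6, the factor of interleukin 4 signalling, by 1.08 ± 0.09. CEBPB, also outside the list, fell from 131, 144 and 140 CPM to 22.1, 22.3 and 25.1 CPM. RXRA, the common partner of nuclear receptors and likewise outside the list, fell from 98.3, 102 and 111 CPM to 14.8, 14.9 and 10.5 CPM. BHLHE40, a repressor that also acts on the circadian clock, fell from 94.5, 87.3 and 91.1 CPM to 15.4, 15.1 and 14.9 CPM, and of 20 tested clock genes 3 rose and 9 fell. MYBL2, a regulator of mitotic genes, fell by 1.67 ± 0.11 on the log2 scale, and AHR, the aryl hydrocarbon receptor, fell by 1.33 ± 0.13.

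Cytoskeletal genes moved in both directions, and the lists were not tested against each other. Of 79 actin genes, 29 rose and 16 fell (36.7% and 20.3%, median 0.25). Of 47 tubulin and microtubule genes, 6 rose and 20 fell (12.8% and 42.6%, median -0.32). Over all genes tested 22.2% were called in each direction. GSN, which severs and caps actin filaments, was at 20.3, 20.8 and 24.0 CPM in untreated and at 437, 406 and 350 CPM in treated cells (4.20 ± 0.12, adjusted p = 6.41e-11). FLNA, a filament crosslinker, went from 1650, 1658 and 1871 CPM to 4582, 4317 and 3107 CPM, and the myosin light chain genes MYL9 (2.05 ± 0.13) and MYL6 (1.52 ± 0.13) and the WAVE complex gene CYFIP2 (1.55 ± 0.09) rose with it. ACTB was not called (0.23 ± 0.13, adjusted p = 0.157), while the smooth-muscle actin gene ACTG2, chosen after its values were seen, went from 325, 331 and 329 CPM to 1677, 1548 and 1710 CPM. The crosslinker gene ACTN1 (-2.41 ± 0.21) and the formin gene DIAPH3 (-2.43 ± 0.20) fell. S100A11, a calcium-binding protein that joins annexins at membranes, rose from 10.2, 9.90 and 10.4 CPM to 99.7, 96.9 and 113 CPM, and its neighbour S100A10 by 1.10 ± 0.12.

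Among microtubule genes, TUBB was at 2595, 2574 and 2719 CPM in untreated and at 1265, 1213 and 1273 CPM in treated cells (-1.07 ± 0.09, adjusted p = 5.73e-07), and TUBA1B fell by 1.08 ± 0.10 on the log2 scale. Rises included genes that bind microtubules. MAPRE1, which tracks growing ends, rose by 1.12 ± 0.09. TPPP, which bundles microtubules and is outside the counted list, rose by 3.35 ± 0.21, from 3.20, 4.91 and 4.11 CPM to 46.0, 45 and 33.7 CPM. Septin and cilia genes leaned higher (54 tested, 25 higher, 7 lower, median 0.37), with the intraflagellar transport genes IFT27 at 1.35 ± 0.18 and IFT46 at 1.00 ± 0.15, while SEPT9 fell by 1.45 ± 0.11 on the log2 scale. SNCAIP, which binds alpha-synuclein, rose from 4.18, 2.81 and 4.78 CPM to 44.5, 41.4 and 44.5 CPM, and WHRN, a scaffold of stereocilia, by 2.74 ± 0.24.

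Organelle genes differed by compartment. Lysosome and proton pump genes were more often higher than lower (70 tested, 35 higher, 8 lower, median 0.37), as were peroxisome genes (42 tested, 16 higher, 4 lower, median 0.27). These are 50% and 11.4% for the former and 38.1% and 9.52% for the latter, against 22.2% in each direction over all genes. TPP1, a lysosomal peptidase, was at 53.4, 51.0 and 42.5 CPM in untreated and at 179, 182 and 193 CPM in treated cells (1.91 ± 0.11, adjusted p = 1.31e-08). LAPTM5, a lysosomal membrane protein of blood cells, rose from 1193, 1169 and 1213 CPM to 2289, 2093 and 2184 CPM, the cholesterol exporter gene NPC1 by 1.25 ± 0.11 and the proton pump subunit gene ATP6V0A1 by 1.09 ± 0.10. CTSC, a lysosomal protease, fell from 821, 813 and 785 CPM to 441, 431 and 466 CPM. In peroxisomes, catalase (CAT) rose by 1.37 ± 0.09 and PHYH, which starts the breakdown of phytanic acid, by 1.43 ± 0.16. Autophagy genes had 16 higher and 9 lower of 46, with GABARAP at 1.25 ± 0.16.

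Proteasome and mitochondrial import genes lay on the lower side, set against the 22.2% called in each direction over all genes. Of 48 proteasome genes, 3 rose and 18 fell (median -0.19), with the assembly chaperone gene PSMG1 at -1.0 ± 0.11 and the activator gene PSME3 at 1.30 ± 0.21. Of 59 mitochondrial import and dynamics genes, 5 rose and 21 fell (median -0.19). LONP1, the matrix protease, was at 498, 536 and 534 CPM in untreated and at 191, 184 and 157 CPM in treated cells (-1.56 ± 0.11, adjusted p = 1.13e-07). PINK1, the kinase that marks damaged mitochondria, moved the other way, from 3.69, 5.27 and 4.56 CPM to 28.7, 26.2 and 23.3 CPM. Transcripts of the mitochondrial genome took 9.27 to 9.76% of counts in untreated and 7.62 to 8.32% in treated libraries.

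Several metal-handling genes fell, among them metallothioneins, small proteins that bind zinc and copper. MT2A (ENSG00000125148, chromosome 16, 56608199 to 56609497) was at 938, 1020 and 755 CPM in untreated and at 88.7, 88.4 and 79.3 CPM in treated cells (-3.40 ± 0.14, adjusted p = 8e-10). MT1E went from 115, 120 and 111 CPM to 8.54, 5.34 and 7.70 CPM, MT1X from 88.1, 114 and 86.8 CPM to 19.6, 22.3 and 21.2 CPM, and MT1F from 20.3, 22.1 and 20.6 CPM to 5.98, 7.37 and 7.17 CPM. The zinc exporter gene SLC30A1 fell from 78.8, 66.3 and 68.8 CPM to 22.7, 21.9 and 17.1 CPM. In each of these 5 genes the highest treated library lay below the lowest untreated one, and over all genes tested 57.5% had groups that did not overlap. Metallothionein genes are close in sequence, so reads may be shared among them. The zinc importers SLC39A8 (26.0, 24.9 and 23.5 against 3.34, 3.61 and 4.30 CPM) and SLC39A14 (-1.33 ± 0.09) also fell. Heme oxygenase (HMOX1), which frees iron from heme, fell from 270, 264 and 267 CPM to 55.4, 56.7 and 51.6 CPM and the ferritin light chain gene FTL from 3061, 3167 and 2796 CPM to 1653, 1484 and 1587 CPM, and of 49 iron, heme and copper genes 10 rose and 16 fell, with a median of 0.03. MT1X, MT1F and SLC30A1 were chosen after their values were seen.

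The promoters of MT2A, MT1X and SLC30A1 are shown because zinc-sensing MTF1 acts on metallothionein and SLC30A1 genes through the metal response element, whose core is TGCNCNC. Capitals mark that core on either strand, in RefSeq windows as above. It was found at 8 places in the window of MT2A, 4 in that of MT1X and 2 in that of SLC30A1. The core is short and common: it was in 63.5% of the 9986 windows, at 2 or more places in 29.6% and at 4 or more in 3.25%. It was in 62.2% of the windows of genes at least 2-fold higher and 63.3% of those of genes at least 2-fold lower.
MT2A (chr16:56608334-56608633, plus strand): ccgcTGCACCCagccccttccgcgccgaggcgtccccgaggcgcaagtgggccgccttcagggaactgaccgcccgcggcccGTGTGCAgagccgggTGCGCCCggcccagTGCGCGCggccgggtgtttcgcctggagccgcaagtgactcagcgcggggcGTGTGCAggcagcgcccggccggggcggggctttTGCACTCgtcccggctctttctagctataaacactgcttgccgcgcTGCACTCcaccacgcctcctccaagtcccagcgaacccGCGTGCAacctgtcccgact
MT1X (chr16:56682220-56682519, plus strand): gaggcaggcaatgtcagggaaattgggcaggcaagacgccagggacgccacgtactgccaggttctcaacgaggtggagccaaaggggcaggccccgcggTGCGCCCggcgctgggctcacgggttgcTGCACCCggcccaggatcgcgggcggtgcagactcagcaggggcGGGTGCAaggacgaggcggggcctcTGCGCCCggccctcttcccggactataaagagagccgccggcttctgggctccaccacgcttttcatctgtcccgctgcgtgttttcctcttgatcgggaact
SLC30A1 (chr1:211579112-211579411, minus strand): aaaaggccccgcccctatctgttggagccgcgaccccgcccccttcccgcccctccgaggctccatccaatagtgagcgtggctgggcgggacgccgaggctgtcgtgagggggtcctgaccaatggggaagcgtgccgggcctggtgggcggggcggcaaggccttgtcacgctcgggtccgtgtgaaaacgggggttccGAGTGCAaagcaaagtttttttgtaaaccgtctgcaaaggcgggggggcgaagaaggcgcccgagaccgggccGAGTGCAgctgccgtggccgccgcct
The labels give no zinc level and no reporter, so the letters describe these windows only.

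**Figure D4:**
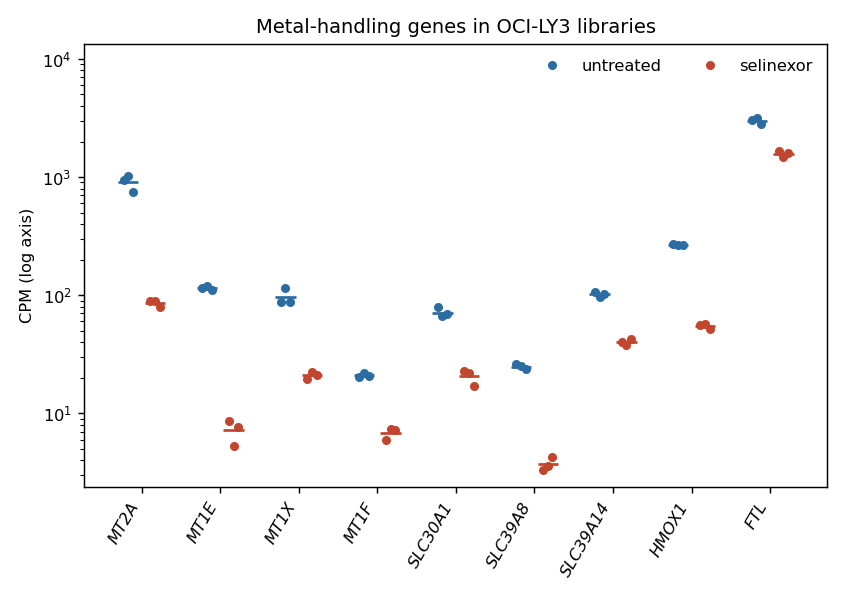
CPM (vertical, log axis) of 9 metal-handling genes in each untreated (blue) and treated (red) OCI-LY3 library, with horizontal lines at the group means. All 9 are lower in treated cells, by the widest margin in MT1E (log2 fold change -4.0).

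Ion channels and transporters included genes that are hardly used in untreated cells. KCNJ11, the pore of the ATP-sensitive potassium channel, was at 4.04, 6.32 and 0.735 CPM in untreated and at 64.5, 67.5 and 56.5 CPM in treated cells (4.08 ± 0.48, adjusted p = 7e-05), and ABCC8, the regulatory subunit of the same channel and its neighbour on chromosome 11, rose from 1.81, 1.83 and 1.25 CPM to 3.88, 4.36 and 3.17 CPM (1.22 ± 0.35, adjusted p = 0.0126). ABCC8 was not called without the third untreated library (1.06, adjusted p = 0.0541). FXYD2, a regulator of the sodium pump, went from 22.4, 24.0 and 24.9 CPM to 291, 259 and 271 CPM and its neighbour FXYD6 from 1.74, 3.16 and 1.25 CPM to 29.5, 27.0 and 22.6 CPM. KCNK9 rose by 2.28 ± 0.20 and KCNMA1, the calcium-activated BK channel, by 1.64 ± 0.14, whereas KCNN4, the calcium-activated channel of lymphocytes, was not called (-0.04 ± 0.11, adjusted p = 0.798). Over 39 potassium channel genes, 9 rose and 8 fell (23.1% and 20.5%, near the 22.2% of all genes). TRPM2, a channel opened by oxidant stress, rose by 1.25 ± 0.18. Of 213 solute carriers 44 rose and 64 fell, with the amino acid carrier SLC7A5 at 1097, 1139 and 1224 CPM in untreated and 504, 494 and 377 CPM in treated cells.

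Guidance genes known from the nervous system, and matrix genes, changed in both directions. Of 40 axon guidance and neurotrophin genes, 9 rose and 16 fell (22.5% and 40%, against 22.2% in each direction over all genes). SLIT1 rose from 1.74, 1.26 and 1.69 CPM to 29.3, 29.3 and 19.7 CPM and SEMA5B from 4.04, 3.51 and 2.20 CPM to 37.2, 31.7 and 26.6 CPM, while SEMA7A (-1.08 ± 0.13) and SEMA4A (-1.48 ± 0.13), semaphorins of immune cells, fell. PXDN, a peroxidase that crosslinks collagen IV, went from 107, 126 and 128 CPM to 7.84, 8.65 and 8.53 CPM, and TGM2, the tissue transglutaminase, from 151, 166 and 176 CPM to 20.8, 19.7 and 16.8 CPM. XYLT1, which starts proteoglycan chains, rose by 3.07 ± 0.17 and GALNT10, which starts mucin-type sugars, by 2.58 ± 0.18. CRYM, a binder of thyroid hormone, rose from 24.7, 28.9 and 23.5 CPM to 207, 210 and 220 CPM, and the quinone reductase gene CRYZ by 3.16 ± 0.18.

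Nucleotide genes included breakdown enzymes that rose in a list that mostly fell (55 tested, 10 higher, 28 lower, median -0.34). This list and the others of this paragraph stand against 22.2% called in each direction over all genes. AMPD3, which removes the amino group from AMP, was at 52.7, 79.8 and 82.9 CPM in untreated and at 211, 283 and 274 CPM in treated cells, and SAMHD1, which hydrolyses deoxynucleotides, rose by 1.01 ± 0.11. Of 31 polyamine and arginine genes, 3 rose and 14 fell, and ODC1, the first enzyme of polyamine synthesis, was among the rises (607, 618 and 629 against 954, 969 and 1069 CPM). Of 113 chromatin genes, 18 rose and 35 fell: DNMT1, the maintenance methyltransferase, fell by 1.32 ± 0.09 on the log2 scale and the Polycomb gene CBX2 by 1.99 ± 0.11, and the acetyltransferase gene KAT2A rose by 1.61 ± 0.17. Of 42 genes on a list of selected XPO1 cargo, 6 rose and 12 fell (median -0.16), with CDKN1A, the cell cycle inhibitor p21, at 217, 219 and 221 against 516, 512 and 460 CPM. KPNB1, which encodes an importin, a receptor for nuclear import, fell (-1.33 ± 0.12). Genes of RNA decay and modification were near the background (74 tested, 13 higher, 11 lower). The RNA-cleaving regulators of immune transcripts ZC3H12A (0.99 ± 0.10) and ZC3H12D (1.08 ± 0.12) rose and the nonsense-mediated decay helicase gene UPF1 fell (-0.98 ± 0.14). TRIM22, an antiviral ubiquitin ligase, rose from 20.5, 18.1 and 21.4 CPM to 370, 417 and 455 CPM.

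The largest rises in mean CPM included abundant genes of translation, beside FLNA, PNOC and CD74. EEF1A1, the elongation factor, went from 6781, 6037 and 5916 CPM to 8931, 9102 and 9974 CPM, and RPS19 and RPS4X, proteins of the small ribosomal subunit, rose by 1.07 ± 0.16 and 1.15 ± 0.11. NAPSB, a napsin-related gene, held 1670, 1816 and 1702 CPM in untreated and 3819, 3747 and 3447 CPM in treated cells. Ribosomal protein genes have many processed copies, and counts on pseudogenes made up 6.59 to 6.86% of untreated and 8.16 to 8.45% of treated libraries. Next to MT2A, FTL and the tubulins, the largest falls in mean CPM included the glycolytic genes ENO1 (-0.57 ± 0.11) and GPI (-1.02 ± 0.10).

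Some genes went from almost no counts to clear expression, or the reverse. With at most 3 counts in every library of the lower group and at least 20 in every library of the other, 19 genes were on in treated cells only and 10 off. Of the 19, 10 are protein-coding and the leading pair is noncoding: FAM225A had 0, 1 and 0 counts in untreated and 174, 199 and 174 counts in treated libraries, and FAM225B had none against 154, 158 and 142 counts, at least 54.0-fold higher (against 3 counts per library). ARPP21 (1, 0 and 0 against 123, 99 and 137 counts) is known from the nervous system and from developing lymphocytes, and DIO3 (0, 1 and 0 against 61, 52 and 49 counts) inactivates thyroid hormone. In the other direction the neighbouring inhibin chain genes INHBE (58, 47 and 60 against 2, 0 and 3 counts) and INHBC (54, 23 and 36 against 2, 1 and 3 counts) went off. LATS2, a Hippo pathway kinase (27, 27 and 43 against 0, 2 and 0 counts), the receptor kinase gene TYRO3 (32, 32 and 56 against 2, 0 and 2 counts), the matrix protein gene SPARC (21, 23 and 25 against 0, 1 and 0 counts) and AIRE, the regulator of self-antigens (24, 24 and 26 against 0, 3 and 1 counts), went off as well. The ratio for FAM225A was 586, with a counting interval from 105 to 23175, and that for SPARC 64.4, with an interval from 11.2 to 2582 (exact, 95%, counting error only).

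Long noncoding RNAs were called in both directions. LINC01857 was at 104, 109 and 94.8 CPM in untreated and at 715, 746 and 836 CPM in treated cells (2.90 ± 0.16, adjusted p = 1.1e-08), and LINC01978 fell from 20.3, 24.0 and 26.0 CPM to 3.42, 3.31 and 4.15 CPM. Of 705 tested lincRNA genes 20.4% were higher and 16.3% lower, and of 966 antisense genes 18.7% and 11.7%, against 23.4% and 24.8% of 12705 protein-coding genes.

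Some called genes were neighbours on a chromosome. Runs of at least 3 adjacent tested genes, all called at least 2-fold in the same direction, numbered 67 and held 221 genes, 38 of the runs higher and 29 lower. Over all genes tested 18.0% were called at least 2-fold, and 50 of the runs held a gene whose exons overlap another gene (96 genes in all). On chromosome 11, a run of 6 from FXYD2 through FXYD6 and the protease gene TMPRSS13 to IL10RA (117800844 to 118003037) was higher, with 4 of its genes overlapping another gene. A run of 4 on the same chromosome (60280541 to 60470760) held MS4A1 and other members of its family, among them MS4A7, which overlapped between the groups (0.975, 1.97 and 0.588 against 3.65, 4.59 and 1.28 CPM, adjusted p = 0.0216). MS4A7 was not called in the fit of the 6 libraries alone (adjusted p = 0.0669), nor in 4 of the 6 fits that leave out a library (adjusted p of 0.0653 to 0.0975). The 4 metallothionein genes MT2A, MT1E, MT1F and MT1X formed a run on chromosome 16 (56608199 to 56684196) that was lower. S100A10 and S100A11 began a run of 4 on chromosome 1 (151982915 to 152813109). The longest run, of 8, lay around LCMT1 on chromosome 16 (25066937 to 25178231) and was higher. TMPRSS13 and MS4A7 were named for their place in a run, after their values were seen.

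The share of called genes differed by level, gene length and chromosome. Among protein-coding genes, 8.97% were higher and 10.9% lower in the lowest decile of mean CPM over the 6 libraries, and 34.1% and 27.8% in the highest decile. In the decile with the shortest gene spans (up to 5632 bases) 28.4% were higher and 18.9% lower, and in the eighth decile (61615 to 91579 bases) 20.1% and 28.4%. Chromosome 13 had 15.8% higher and 32.3% lower of 291 tested genes, and chromosome 22 had 27.6% higher and 17.3% lower of 468. These shares are counts with no test.

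**Figure D5:**
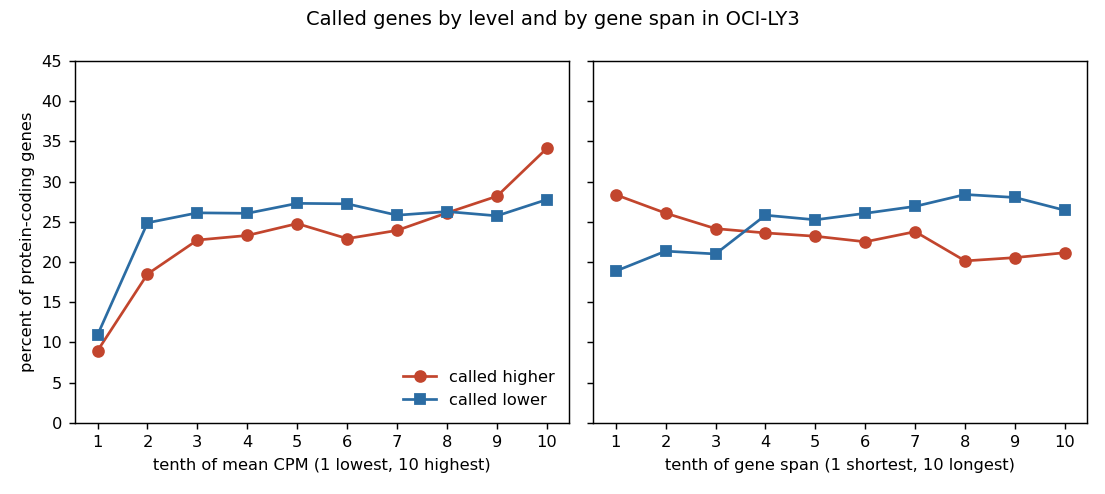
Percent of protein-coding genes called higher (red circles) and lower (blue squares) by decile of mean CPM over the 6 libraries (left) and by decile of gene span (right). The share called higher is largest in the top decile of level (34.1%) and in the decile of shortest genes (28.4%).

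Some well-expressed genes differed widely between replicates of a group. Of 9730 genes whose mean log2 CPM reached 3, 431 had a ratio over 2 between the highest and lowest library of a group. MYC was at 18.1, 164 and 161 CPM in untreated and at 12.7, 152 and 11.9 CPM in treated cells, so that both groups held a low and a high level (-0.95 ± 1.06, adjusted p = 0.511). Without the second treated library MYC was called lower (-3.22, adjusted p = 0.0238). SENP3-EIF4A1 and PPAN-P2RY11, which are read-through genes, each had at least 1 library of a group at 0 or below 1 CPM and another above 20 CPM. No direction is given for these 3 genes.

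The largest changes were also looked up in SU-DHL6. Of the 80 genes with the largest called changes in OCI-LY3 (40 in each direction, whose mean log2 CPM reached 3 and whose groups did not overlap), 36 were called in the same direction in SU-DHL6 and 8 in the opposite one with a called difference between the lines. Some of the 80, among them CXCL13, FXYD2, FXYD6 and SNCAIP, had a log2 fold change of 0 in SU-DHL6 and were called in neither direction there. The same shares over all genes tested were not counted, so these counts have no background beside them. The 2 responses come from cells whose dose and time may differ.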

How the data were processed

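RNA sequencing covered 12 libraries (4 groups of 3), of which the 6 from OCI-LY3 are described here. Libraries were made with an mRNA kit from 1.3 µg of column-purified RNA, per the labels' protocols. The table the authors deposited lists 58302 genes, with whole-number read counts and FPKM values per library, per the file headers. All tests used the counts, and the deposited FPKM values served only to select the 10 genes with the highest level per length. Columns were mapped to libraries by name. Aligner, counter and strand setting are not stated in the sources used. Builds named in the submitters' processing notes are the mouse builds GRCm38 and mm10, but the identifiers are human, and 58039 of them were found in GENCODE release 29 on GRCh38, 97.5% with identical coordinates.

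The test on these counts was that of edgeR 4.0.16 (R 4.3.3): filterByExpr by group, TMM factors (0.865 to 0.887 in treated and 0.944 to 0.962 in untreated OCI-LY3 libraries), 1 coefficient per group over the 12 libraries, quasi-likelihood F tests (robust moderation), and Benjamini-Hochberg adjustment over 16474 genes. SE was computed as the absolute log2 fold change over the root of F. Lists are given by counts and medians, without a test, and any mention of their direction is a description.

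The members, the 68 gene lists and the rule for named genes were chosen with earlier results of these data known. The rule took the 40 largest called rises and falls whose mean log2 CPM reached 3 and whose groups did not overlap, the 12 largest in mean CPM, genes with at most 3 counts in 1 group and at least 20 in the other, up to 6 called members per direction of each list with its most abundant member that was not called, XPO1, and genes that differ most between replicates. From the 705 genes so selected, the text names part. The alternatives tried were DESeq2 1.42.0, limma-voom (limma 3.58.1), other size factors, other filters, OCI-LY3 alone, the replicate number as a block, a threshold of 0.01 and leaving out each library. Fits without overlapping genes or without genes over 2-fold apart between replicates were added after seeing the data.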

Additional observations from a re-analysis of the deposited data

Results flagged for a closer look

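Of the 80 largest changes in OCI-LY3, the responses of 8 genes were called in opposite directions in the lines, and the edgeR test of the difference (OCI-LY3 minus SU-DHL6) was called for each. The labels tie no dose or time to either line, so line, dose and time cannot be told apart.

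MT2A and MT1E, the metallothioneins, fell in OCI-LY3 and rose in SU-DHL6 (0.92 ± 0.24 and 2.20 ± 0.79), with differences of -4.32 ± 0.27 (adjusted p = 9.03e-08) and -6.20 ± 0.79 (adjusted p = 4.08e-05). BHLHE40, the clock repressor, rose in SU-DHL6 by 0.98 ± 0.10, a difference of -3.57 ± 0.15 (adjusted p = 4.63e-09). ID3, the inhibitor of E proteins, went up in OCI-LY3 and was at -1.50 ± 0.13 in SU-DHL6, a difference of 4.46 ± 0.18 (adjusted p = 4.63e-09).

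KCNJ11, the potassium channel pore, was at -1.91 ± 0.46 in SU-DHL6, a difference of 5.99 ± 0.66 (adjusted p = 7.63e-05), and CLDN5 at -2.83 ± 1.01, a difference of 6.0 ± 1.03 (adjusted p = 0.000475). FCRL5 differed by 3.67 ± 0.33 (adjusted p = 3.31e-06), with a response of -0.55 ± 0.21 in SU-DHL6. XYLT1 differed by 3.50 ± 0.22 (adjusted p = 8.94e-08), with -0.43 ± 0.14 in SU-DHL6.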

How the results depend on the processing

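Over the planned settings the counts of called genes ranged from 2607 to 3859 higher and from 2600 to 4388 lower. Scaling by total counts gave 2939 higher and 4388 lower, so that 40.1% of called genes were higher in place of 50.05%, and it moved the median of all genes by -0.09. Leaving out each library in turn gave 3167 to 3307 higher, 3126 to 3262 lower and 2872 to 2944 of at least 2-fold, against 3664, 3657 and 2958. Without genes whose exons overlap another gene, 1830 were higher, 1945 lower and 1585 of at least 2-fold among 8288, since fewer genes were tested. The replicate block on the 6 OCI-LY3 libraries gave 3498 higher, 3677 lower and 2695 of at least 2-fold, against 3815, 3964 and 2747 without it. Same-numbered libraries correlated at 0.0075, 0.0047 and 0.013 in their deviations, and libraries with different numbers at -0.0211 to 0.0147. Treated libraries 1 and 3 correlated best with the untreated library of the same number, and treated library 2 with untreated library 1 (0.0147). All these correlations were small, so they cannot decide whether the numbers pair the libraries. Of 3460 refits of the named genes, 3438 kept their call, 17 lost it and 5 gained it. The losses were in 4 genes: CD5, BATF, ABCC8 and MS4A7. CD5 was not called in 5 of the 6 fits that leave out a library (adjusted p of 0.0543 to 0.0802). The gains were BCL6, MIF and JUNB under total counts, MIF in the 6 libraries alone and MYC without the second treated library. Most named genes were selected for large or well-called changes in the main fit, so their calls were likely to be kept. Over all genes, the fits that leave out a library kept 6083 to 6216 of the 7321 calls of the main fit. Among the list values, 315 of 2193 moved by more than 1.5 times or 1 SD. The median of the germinal centre markers ranged from -0.07 to 0.49 and the number of TNF receptor genes higher from 3 to 10, with the lowest values in the added fits that drop genes. Genes at 0 in a group are limited to 3 counts per library, that is 0.213 CPM in untreated and 0.228 CPM in treated cells.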

Other observations

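Further gene lists held called genes in OCI-LY3, several at shares near or below those of all genes. Palmitoyltransferase genes of the DHHC family were more often higher than lower (21 tested, 11 higher, 3 lower, median log2 fold change 0.29, against 22.2% in each direction over all genes), with ZDHHC4 at 32.8, 36.1 and 32.8 CPM in untreated and 69.5, 61.5 and 66.7 CPM in treated cells, while ZDHHC20 fell by 0.96 ± 0.12 on the log2 scale. Of 34 genes of inflammasomes, caspases and cell-death sensors, 10 rose and 3 fell. NLRP7 was at 292, 297 and 261 CPM in untreated and at 771, 669 and 805 CPM in treated cells (1.40 ± 0.12, edgeR adjusted p = 5.03e-07), and PYCARD, the ASC adaptor, rose by 0.90 ± 0.14. Of 71 sphingolipid and phospholipid genes, 22 rose and 17 fell: DGKD, a diacylglycerol kinase, rose by 1.80 ± 0.12 and PEMT, which makes phosphatidylcholine in liver, fell by 2.74 ± 0.27 on the log2 scale. Of 52 glycosyltransferase genes, 18 rose and 14 fell, with the sialyltransferase gene ST3GAL2 at 1.27 ± 0.12.

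Genes of vesicle release known from neurons included RIMS3, at 127, 124 and 130 CPM in untreated and 337, 344 and 297 CPM in treated cells, VAMP2 (1.57 ± 0.17) and, in the other direction, GAP43, which fell from 11.8, 9.76 and 11.5 CPM to 0.311, 0.376 and 0.528 CPM. Over 43 neuronal and synaptic genes, 13 rose and 11 fell. Of 39 DNAJ co-chaperone genes, 14 rose and 9 fell, with DNAJA1 at 118, 108 and 109 against 235, 233 and 258 CPM and DNAJB6 at 1.27 ± 0.22. Of 436 tested ZNF genes, 82 rose and 51 fell, both below the background. ZNF264 (2.78 ± 0.40) and ZNF44 (2.20 ± 0.18) rose, and ZNF318 fell by 1.64 ± 0.09 on the log2 scale. Among 65 phosphoinositide and mTOR pathway genes, 16 rose and 24 fell: the phosphatase gene MTMR1 rose by 1.30 ± 0.10, and EIF4EBP1, the translation repressor that mTORC1 inactivates, fell by 1.51 ± 0.14 on the log2 scale.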
